A study of Mus musculus with 24 samples.

Results

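The respiratory chain was followed through reprogramming as 98 genes, 91 encoded in the nucleus and 7 encoded by the mitochondrial DNA, of the 37315 genes with values. Members were the protein-coding genes whose GENCODE vM21 symbol begins with Nduf, Uqcr, Atp5 or Cox4 to Cox8, the genes Sdha, Sdhb, Sdhc, Sdhd and Cyc1, and the 13 protein-coding genes of the mitochondrial DNA, if their normalized read count averaged above 10 over the 24 libraries. The symbols named 95 nuclear genes, of which 94 had values. Cox6a2, Cox8b and Cox8c lay under the minimum, and so did 6 of the 13 mitochondrial genes. By complex, the nuclear members were 36 subunits of complex I, 4 of complex II, 9 of complex III, 16 of complex IV, 16 of ATP synthase, and 10 assembly factors. The 7 mitochondrial members were mt-Nd1, mt-Nd2, mt-Nd4, mt-Nd5 and mt-Nd6 of complex I, mt-Cytb of complex III and mt-Co1 of complex IV.

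RNA was sequenced from 12 populations, with 2 libraries each, of mouse cells on the way from neural precursor cells (NPCs) to induced pluripotent stem cells. NPCs and embryonic stem cells (ESCs, grown in serum and LIF) were the start and the pluripotent reference. Reprogramming cells were untreated (control) or received 10 ng/ml interferon γ (IFNγ) from day 0 to 5. They were collected at day 2 as cells negative for CFSE, the dye that had marked the feeders, at day 5 as SSEA1-positive cells, and at day 7 as SSEA1-positive cells that were negative, medium or high for X-GFP. All 12 populations descended from 1 female hybrid ESC line (129S1/SvImJ by CAST/EiJ) that carried X-GFP in the Hprt locus of the 129 X chromosome (X mus), a truncated Tsix that makes X mus the chromosome preferentially inactivated, an inducible MKOS cassette (c-Myc, Klf4, Oct4 and Sox2) and rtTA in the Sp3 locus. All reprogramming cells received doxycycline, LIF and ascorbic acid on irradiated male fibroblast feeders. With 1 line, the spread between libraries was not one between genotypes. The labels do not state whether the 2 libraries of a population came from separate cultures or rounds.

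The libraries held 24746109 to 37056508 reads on genes. Within every population, the spread between its 2 libraries was above counting noise (chi-square per degree of freedom 3.16 to 19.3). Each library was counted as its own replicate, although this spread does not show that the cultures were separate. The defining ESC genes (Nanog, Zfp42, Esrrb, Dppa4, Tfcp2l1 and Klf2) summed to 99827 to 101092 normalized counts in ESCs and to 105 to 124 in NPCs, as the labels state. In day 2 cells, 4 Y-linked genes, which the female line lacks, summed to 218 to 253 counts in control and 125 to 223 in IFNγ libraries, against 12.5 or less in any other population. The feeders were male, and the sort for CFSE-negative cells was meant to remove them. In bulk samples a smaller number of cells of a type and less RNA per cell cannot be told apart.

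Oxidative phosphorylation passes electrons from NADH (through complex I) or succinate (complex II) over complex III and cytochrome c to oxygen at complex IV, and ATP synthase uses the resulting proton gradient to make ATP. Complexes I, III, IV and ATP synthase mix subunits from both genomes, whereas complex II is entirely nuclear. Mitochondrial mRNAs are cut from long polycistronic transcripts together with the rRNAs.

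Of the mitochondrial genes, 6 had almost no reads in any library: mt-Co2, mt-Atp8, mt-Atp6, mt-Co3, mt-Nd3 and mt-Nd4l each had 0 to 2 counts. For 5 of these, 98.0 to 100% of the 50-base words of the gene also occurred elsewhere in the annotated exons, mostly in a run of mitochondrial pseudogenes on chromosome 1, and the library was read in 50-base pairs. mt-Atp8 shared none with other annotated exons and was still at 0. Sequence outside annotated exons was not searched for any gene, and the reason was not tested. Among the measured genes the shared part was 62.2% for mt-Nd4, 51.1% for mt-Co1, 8.19% for mt-Nd2, 7.61% for mt-Nd5 and 0% for mt-Nd1, mt-Cytb and mt-Nd6. How reads with several matches were counted was not given in the sources used here, so the levels of mt-Nd4 and mt-Co1 relative to other genes are uncertain.

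The following pairs show how close the copies are. Each line gives 80 bases of RefSeq genome sequence (GRCm38) on the strand named, with the bases that differ in capitals. The first pair is from mt-Nd2, which kept its reads (exon of the gene at chrM:4452-4531, plus strand), and the pseudogene Gm13339 (chr2:22590444-22590523, minus strand). The second is from mt-Nd3, which was at 0 (chrM:9459-9538, plus strand), and Gm28438 (chr1:24613040-24613119, minus strand).
mt-Nd2: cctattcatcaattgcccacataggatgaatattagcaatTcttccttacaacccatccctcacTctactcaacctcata
Gm13339: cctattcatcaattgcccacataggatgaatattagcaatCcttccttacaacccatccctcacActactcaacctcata
mt-Nd3: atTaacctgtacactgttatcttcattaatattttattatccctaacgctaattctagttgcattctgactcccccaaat
Gm28438: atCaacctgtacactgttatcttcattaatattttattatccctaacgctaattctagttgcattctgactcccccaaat
Over the stretches that could be aligned, mt-Nd2 and its copy differed at 17 of 510 bases, and mt-Nd3 and its copy at 1 of 345.

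Nuclear and mitochondrial members took different courses. The mean log2 level of the 91 nuclear members, relative to ESCs, was -0.79 in NPCs, -0.73 and -0.77 in day 2 control and IFNγ cells, -0.50 and -0.51 at day 5, -0.49 and -0.47 in day 7 X-GFP negative cells, -0.32 and -0.26 in X-GFP medium cells, and -0.17 and -0.08 in X-GFP high cells. Among control cells the nuclear level was thus nearer to that of ESCs at day 5 than at day 2, and in X-GFP medium and high cells than in negative ones. The libraries of NPCs and day 2 cells overlapped (-0.80 and -0.79 against -0.66 and -0.81), and so did those of day 5 and X-GFP negative cells (-0.49 and -0.51 against -0.52 and -0.46). After rescaling (described with the ESC comparison) X-GFP negative cells (-0.40) lay below day 5 cells (-0.35). The mitochondrial members instead were near the ESC level in NPCs (0.04), stood at 0.46 and 0.28 at day 2 and at 1.51 and 1.48 at day 5, and were back at 0.28 in X-GFP negative control cells. Taken as log2 of the summed counts, in which mt-Co1 weighs most, the level was -0.22 in NPCs and 0.66 in day 5 control cells. At day 7 the IFNγ populations had the higher mitochondrial level, with 0.53 against 0.28 in X-GFP negative, 1.10 against 0.40 in X-GFP medium and 1.12 against 0.59 in X-GFP high cells. As log2 of the summed counts these were 0.39 against 0.32, 0.78 against 0.31 and 0.75 against 0.34. As a share of the counts outside the mitochondrial rRNAs, the mitochondrial members held 0.667% in NPCs, 0.682% in ESCs and 1.19% in day 5 control cells.

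**Figure D1:**
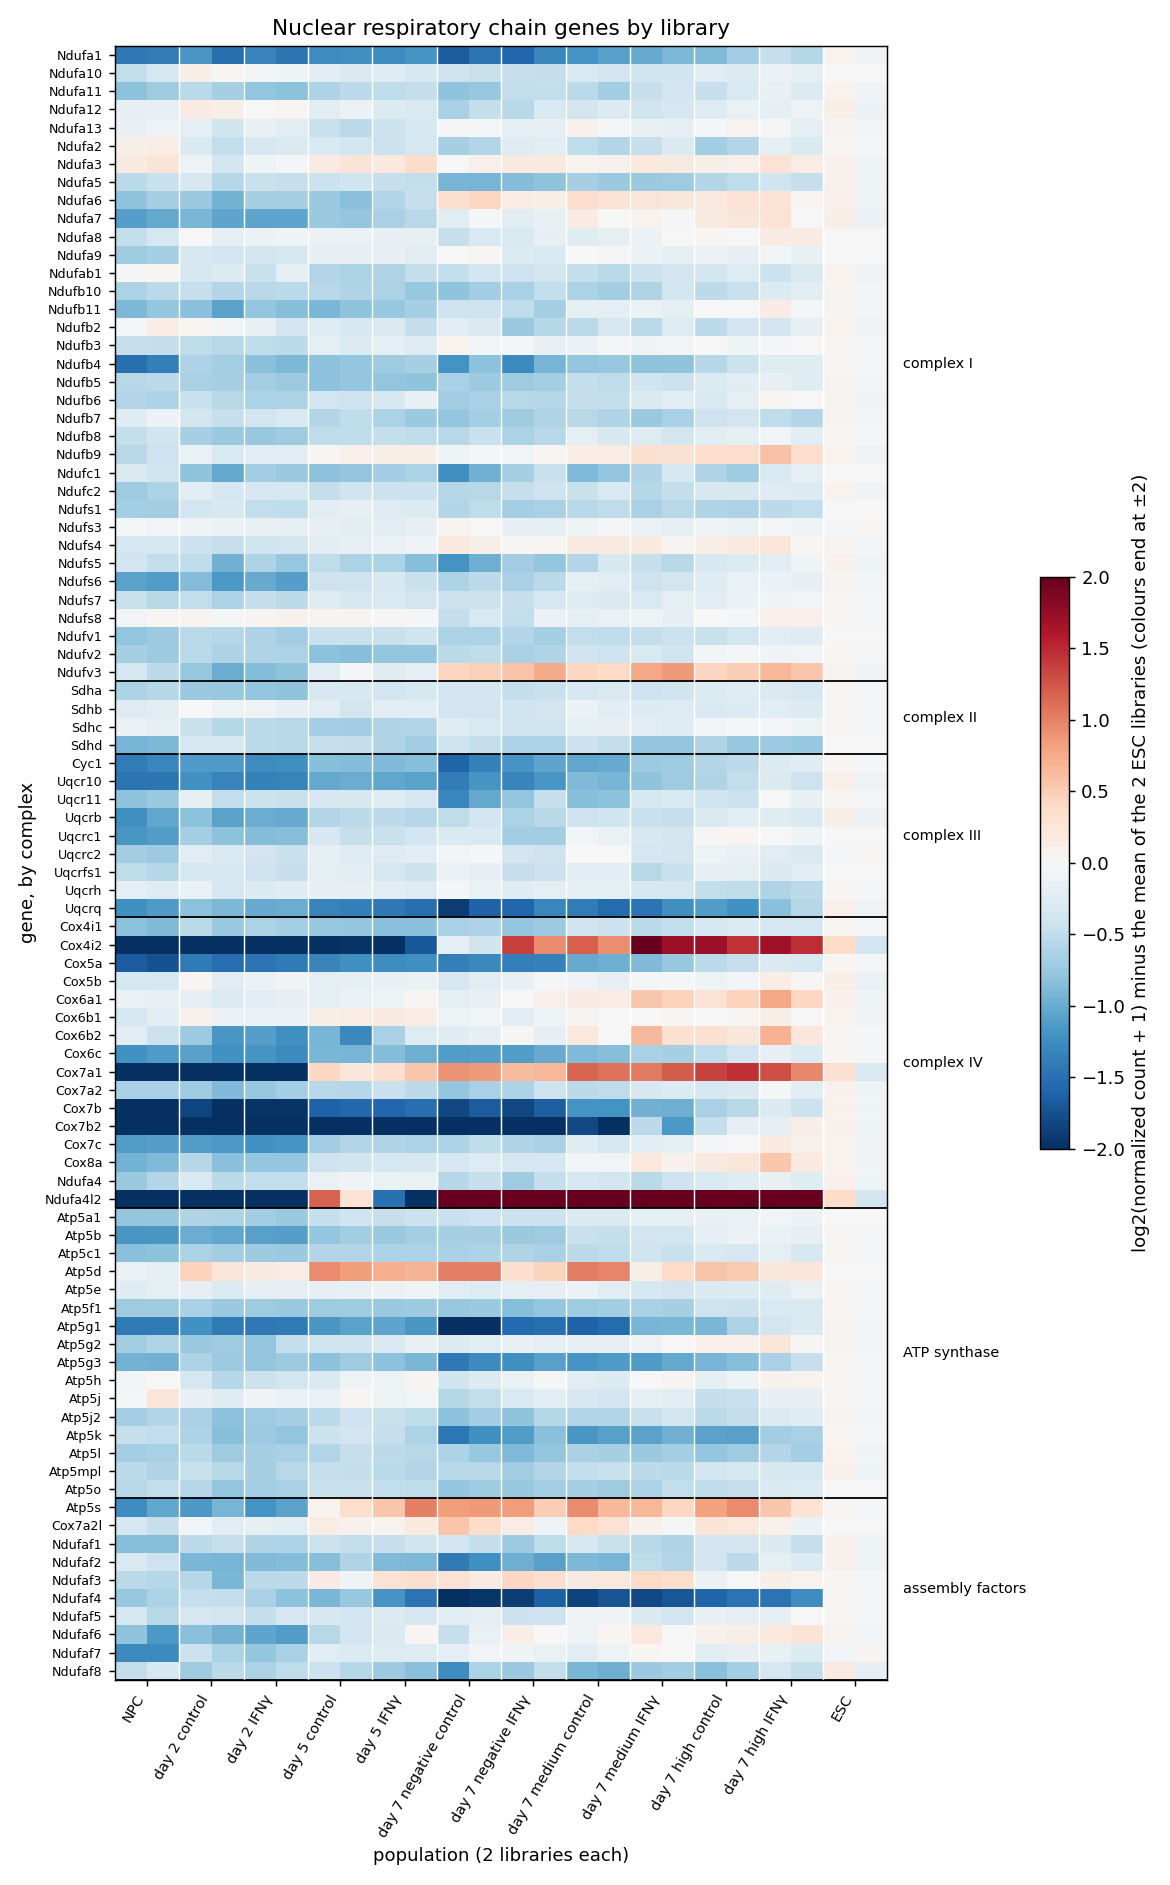
Heat map of the log2 level of the nuclear members, 1 of them left out (rows, grouped by complex), in each of the 24 libraries (columns, 2 for each population), relative to the mean of the 2 ESC libraries, with colours ending at ±2. Most rows are blue in NPCs and pale in X-GFP high cells, and Cox7a1, Cox4i2 and Ndufa4l2 stand out in red in most day 7 libraries.

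Gene by gene, 53 of the 91 nuclear members had their highest population mean in ESCs, and 35 had their lowest in NPCs. Per kilobase of exon, the nuclear members had a median level of 933 normalized counts in NPCs and 1421 in ESCs. The highest was Atp5b, the catalytic β subunit of ATP synthase, in ESCs (15938 per kilobase), and in NPCs it was Atp5a1, the α subunit (7897 per kilobase). mt-Co1 had 59977 per kilobase in NPCs and 80064 in ESCs.

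The comparison of ESCs with NPCs asked how the ends of the path differ. With limma (log2 of normalized count + 1, adjusted p under 0.1, used throughout), 80 of 91 nuclear members were higher in ESCs and 1 was lower, where 42.2% of all 15911 genes tested were higher and 43.4% lower. The median log2 fold change was 0.63 for the nuclear members and -0.027 for all genes. When libraries were rescaled to 1 total outside the mitochondrial chromosome, which moved the median of all genes to -0.22, the split was 66 higher and 7 lower. Every complex took part: 28 of 36 complex I subunits, 4 of 4 of complex II, 9 of 9 of complex III, 15 of 16 of complex IV, 14 of 16 of ATP synthase and 10 of 10 assembly factors were higher. Complexes III and IV had the largest medians (1.13 and 1.01), and complex II the smallest (0.42).

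Cox5a, a subunit of complex IV next to its catalytic core, had 2224 and 2094 normalized counts in the NPC libraries and 7197 and 6832 in the ESC libraries. Its log2 fold change was 1.70 ± 0.064, adjusted p = 5.35e-06 (± gives the standard error of the fit here and below). Cyc1, the cytochrome c1 of complex III, went from 1855 and 1991 to 5031 and 4782 counts (1.35 ± 0.066, adjusted p = 1.16e-05). Atp5b went from 29986 and 30147 to 68291 and 66769 counts (1.17 ± 0.071, adjusted p = 2.43e-05). Core nuclear subunits of complex I that were higher in ESCs included Ndufs1 (0.68), Ndufs7 (0.49), Ndufv1 (0.76) and Ndufv2 (0.70). Ndufs3 and Ndufs8, which also belong to the core, did not pass (0.04 ± 0.066, adjusted p = 0.598 and 0.014 ± 0.077, adjusted p = 0.873). The 1 nuclear member that was lower in ESCs was Ndufa3, an accessory complex I subunit, with 927 and 980.4 counts in NPCs and 869 and 774 in ESCs (-0.22 ± 0.092, adjusted p = 0.0694), and DESeq2 called no nuclear member lower.

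The mitochondrial members did not share this direction. mt-Co1 had 87083 and 98248 counts in NPCs and 125980.4 and 121418 in ESCs (0.42 ± 0.11, adjusted p = 0.0113), and mt-Nd6 had 319 and 334 against 546 and 482 (0.65 ± 0.12, adjusted p = 0.00259), so both were higher in ESCs. mt-Nd2 (-0.54 ± 0.13, adjusted p = 0.00893), mt-Cytb (-0.30 ± 0.10, adjusted p = 0.0358), mt-Nd4 (-0.29 ± 0.14, adjusted p = 0.0972) and mt-Nd5 (-0.26 ± 0.073, adjusted p = 0.0171) were lower. mt-Nd1 did not pass (0.014 ± 0.095, adjusted p = 0.9). mt-Nd6 is the one mitochondrial member on the minus strand, opposite to the others. The strand setting of the counting was not given in the sources used here, so its counts may hold reads of the opposite strand.

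At day 2, control cells compared with NPCs showed a mixed picture. Of 87 nuclear members tested, 31 were higher and 14 lower, against 31.6% and 37.6% of all genes, and of the mitochondrial members 4 of 7 were higher and none lower. The split was 37 and 10 after rescaling and 35 and 8 with DESeq2, and without the first control library at day 2 the count of all members past the threshold fell from 49 to 25. Complex III stood out by its count, with 7 of 9 members higher and none lower, at a median of 0.22. Sdhd, a membrane anchor of complex II, had 2549 and 2600.3 counts in NPCs and 3874 and 3836 at day 2 (0.58 ± 0.066, adjusted p = 0.000686). Ndufb4, an accessory subunit of complex I, had 236 and 262 and then 443 and 424 (0.80 ± 0.13, adjusted p = 0.00282). Both rose, and lack of overlap between libraries was a condition for naming Ndufb4. Cox6b2, the testis form of a complex IV subunit, fell from 455 and 392 to 317 and 233 counts (-0.63 ± 0.19, adjusted p = 0.0263), and Ndufc1 of complex I fell by 0.57 on the log2 scale (adjusted p = 0.00718). Among mitochondrial members, mt-Nd6 rose most (1.35 ± 0.12, adjusted p = 0.000313), followed by mt-Co1 (0.46 ± 0.13, adjusted p = 0.0238). Fibroblast genes (Col1a1, Col1a2, Col3a1, Dcn, Lum, Thy1 and Pdgfrb) summed to 28282 to 40780 counts in NPCs and 40693 to 60482 in day 2 control cells, with all 7 above the floor of 3 reads in both. Of these 7 genes, 4 were higher and 2 lower at day 2. The day 2 cells had been sorted against CFSE-stained feeders, and the part of these genes in the differences was not tested.

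From day 2 to day 5 the 7 mitochondrial members all rose, with a median log2 fold change of 1.15. mt-Nd4 had 1886 and 1990.0 counts at day 2 and 5476 and 5584 at day 5 (1.51 ± 0.065, adjusted p = 5.24e-06), and mt-Nd2 had 5010.2 and 4958 against 11139 and 11001 (1.15 ± 0.056, adjusted p = 7.41e-06). mt-Nd6 rose by 1.73 ± 0.096, adjusted p = 1.15e-05, while mt-Co1 rose least (0.37 ± 0.078, adjusted p = 0.00441). None of the 7 overlapped between days, but the share of all genes without overlap was not counted. Of 89 nuclear members tested, 39 rose and 9 fell (34.9% and 35.6% of all genes), with a median of 0.12. After rescaling, which moved the median of all genes to -0.10, the nuclear split was 20 and 18, whereas the 7 mitochondrial members all still rose.

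Within the nuclear members, 9 of 14 complex IV subunits and 8 of 16 ATP synthase subunits rose from day 2 to day 5 and none fell. Over all genes, 34.9% rose and 35.6% fell. Complex II went the other way, with 3 of 4 subunits lower: Sdhb (-0.25), Sdhc (-0.19) and Sdhd (-0.13) fell, and Sdha, the flavoprotein, rose (0.42 ± 0.058, adjusted p = 0.000575). Uqcrq, a small complex III subunit, fell from 927 and 874 to 648 and 634 counts (-0.49 ± 0.092, adjusted p = 0.00268). Ndufaf3, a complex I assembly factor, rose from 256 and 200.5 to 425 and 357 (0.78 ± 0.17, adjusted p = 0.00572), and Ndufaf4, its partner in assembly, fell from 1355 and 1327 to 995 and 1102 (-0.36 ± 0.086, adjusted p = 0.00885). All 7 fibroblast genes fell over these days, from a sum of 40693 to 60482 counts to one of 1697 to 2543, and their part was not tested. Without the second day 2 library, 36 members passed in place of 55.

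**Figure D2:**
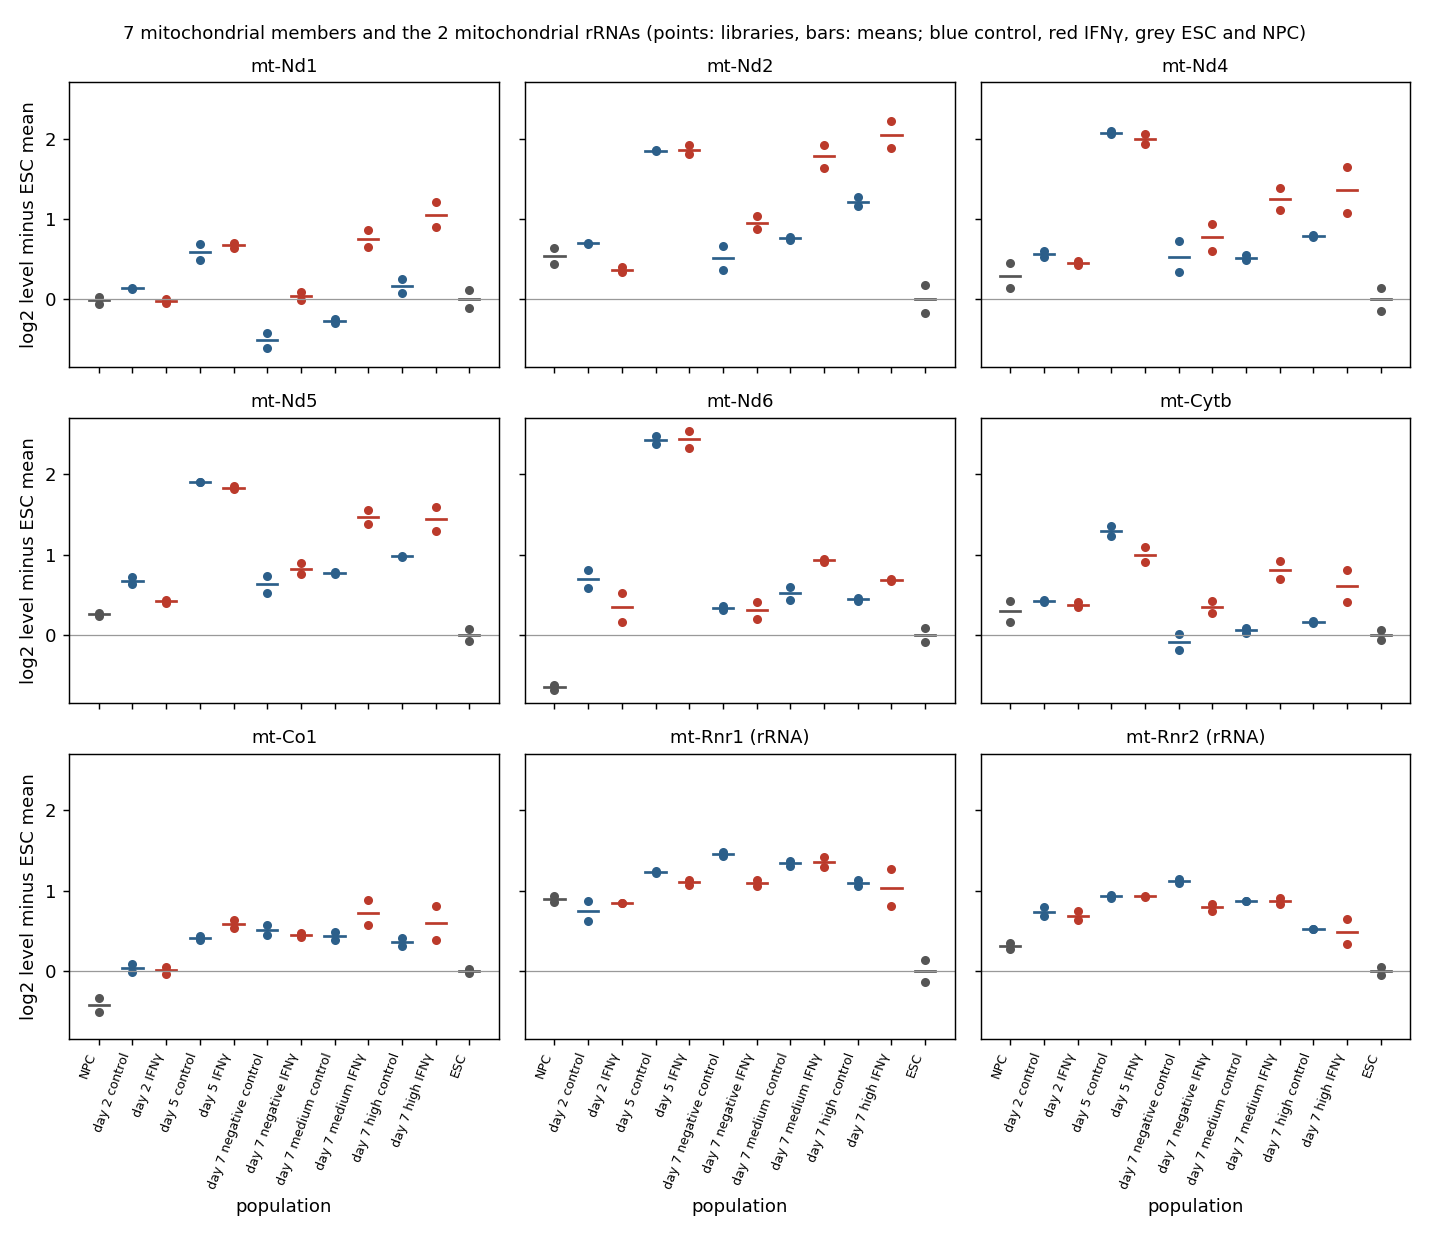
Levels of the 7 mitochondrial members and the 2 mitochondrial rRNAs in the 24 libraries (log2 of normalized count + 1 minus the mean of the 2 ESC libraries, by population; points are libraries and bars are means; blue control, red IFNγ, grey ESC and NPC). The day 5 libraries are the highest for mt-Nd4, mt-Nd5 and mt-Nd6, and at day 7 red lies above blue for mt-Nd1 and mt-Nd2, while neither rRNA passed as higher there.

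Among day 7 control cells, the nuclear level of X-GFP high cells was nearer to that of ESCs than the level of X-GFP negative cells was. The mean log2 level of the mitochondrial members was farther from it (0.59 against 0.28). As log2 of the summed counts, the mitochondrial level was 0.34 in X-GFP high and 0.32 in X-GFP negative cells. Of 91 nuclear members, 59 were higher in X-GFP high cells and 7 lower (34.7% and 39.3% of all genes), at a median of 0.26. Complex I had 23 of 36 and complex IV 14 of 16 subunits higher (medians 0.28 and 0.52). Atp5g1, one of the genes for the c subunit that forms the rotor ring of ATP synthase, had 486 and 618 counts in X-GFP negative and 1337 and 1646 in X-GFP high cells (1.44 ± 0.12, adjusted p = 1.55e-06). Cyc1 had 1624 and 1916 against 3268 and 3419 counts (0.92 ± 0.08, adjusted p = 1.70e-06). The 7 that were lower included Atp5d, the δ subunit of the central stalk, with 5454 and 5449 against 4035 and 3913 counts (-0.46 ± 0.056, adjusted p = 2.38e-05), and Uqcrh, the hinge protein of complex III (-0.41 ± 0.061, adjusted p = 0.000107). Of the mitochondrial members 5 of 7 were higher, with mt-Nd2 (0.71 ± 0.087, adjusted p = 2.54e-05) and mt-Nd1 (0.68 ± 0.074, adjusted p = 9.39e-06) changing most, and mt-Co1 was lower (-0.15 ± 0.069, adjusted p = 0.0731). The ESC genes summed to 18221 to 20235 counts in X-GFP negative and 61897 to 62823 in X-GFP high control cells. X-GFP was the sorted reporter, and the X-linked members are described apart.

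ESCs still differed from X-GFP high control cells. Here 58 of 91 nuclear members were higher in ESCs and 14 lower (37.8% and 37.9% of all genes), and the split was 46 and 20 after rescaling, which moved the median of all genes to -0.11. Complex III (8 of 9) and ATP synthase (14 of 16) had most of their subunits higher in ESCs, whereas complex IV was split evenly, with 6 higher and 6 lower. Ndufaf4 had 619 and 670.3 counts in X-GFP high cells and 1925 and 1818 in ESCs (1.54 ± 0.073, adjusted p = 5.14e-10). Uqcrq had 758 and 709.8 against 1755 and 1531 (1.16 ± 0.08, adjusted p = 1.84e-08), and Atp5k, subunit e of ATP synthase, which joins its dimers, had 1319 and 1304 against 2837 and 2689 (1.07 ± 0.061, adjusted p = 2.48e-09). These 3 were named as the largest increases among members without overlap between libraries. Atp5s, an ATP synthase coupling factor, was lower in ESCs (-0.87 ± 0.13, adjusted p = 3.38e-05). The 7 mitochondrial members were all lower in ESCs, from mt-Cytb (-0.16 ± 0.052) to mt-Nd2 (-1.22 ± 0.087).

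Few members passed while IFNγ was present. At day 2, 1 of 87 nuclear members passed, Sdhd, which was lower with IFNγ: its counts were 3874 and 3836 in control and 3366 and 3304 in IFNγ libraries (-0.21 ± 0.051, adjusted p = 0.0771). Over all genes 5.03% were higher and 3.45% lower. Of the 7 mitochondrial members, mt-Nd2 was lower, with 5010.2 and 4958 against 4062 and 3885 counts (-0.33 ± 0.052, adjusted p = 0.0201), and so was mt-Nd5 (-0.25 ± 0.056, adjusted p = 0.0592). mt-Nd6 had the largest difference but did not pass (-0.35 ± 0.14, adjusted p = 0.223). In this fit no member was higher at day 2. At an unadjusted p under 0.05 there were 6 nuclear and 4 mitochondrial members, and DESeq2 called 2 members, both mitochondrial and lower. Without the second IFNγ library no member passed. The fibroblast sum was 40693 to 60482 counts in control and 24859 to 30305 in IFNγ libraries at day 2, and its part in these differences was not tested.

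At day 5, 1 of 89 nuclear members passed (1.65% of all genes were higher and 0.535% lower) and none of the 7 mitochondrial members did. At an unadjusted p under 0.05 there were 8 nuclear members and 1 mitochondrial member, and DESeq2 called 4 members. The gene was Ndufa4l2, with 109 and 58.6 counts in control and 16.4 and 3.16 in IFNγ libraries (-3.25 ± 0.67, adjusted p = 0.0974). Its call was lost with a pseudocount of 0.1 (adjusted p = 0.105), without the filter on low values (0.197), and when either control library (0.269 and 0.123) or the second IFNγ library (0.132) was left out. mt-Nd1 had 44692 and 51481 and 49488 and 51933 counts (0.08 ± 0.086, adjusted p = 0.65), with overlapping libraries.

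At day 7, after IFNγ had been withdrawn, many more members and many more of all genes differed, and the nuclear members went both ways. In X-GFP negative cells, 18 of 90 nuclear members (20.0%) were higher with IFNγ and 16 (17.8%) lower, against 31.1% and 30.8% of all genes. In X-GFP medium cells these were 25 and 14 of 91 (27.5% and 15.4%, against 33.3% and 29.6%). In X-GFP high cells they were 23 and 4 of 91 (25.3% and 4.40%, against 18.1% and 20.4%). The nuclear members thus passed less often than all genes, each way, in X-GFP negative and medium cells. In X-GFP high cells a larger share of them was higher and a smaller share lower. The medians were 0.0058, 0.043 and 0.10, where those of all genes were 0.016, 0.044 and 0.027. The split depended on scaling in X-GFP negative cells, where it became 37 higher and 8 lower after rescaling, which moved the median of all genes to 0.14, and on the tool in X-GFP medium cells, where DESeq2 called 13 and 12. The total of members past the threshold also fell when a control library was left out: from 38 to 21 without the first in X-GFP negative cells, from 46 to 25 or 27 without the first or second in X-GFP medium cells, and from 33 to 13 or 21 in X-GFP high cells.

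**Figure D3:**
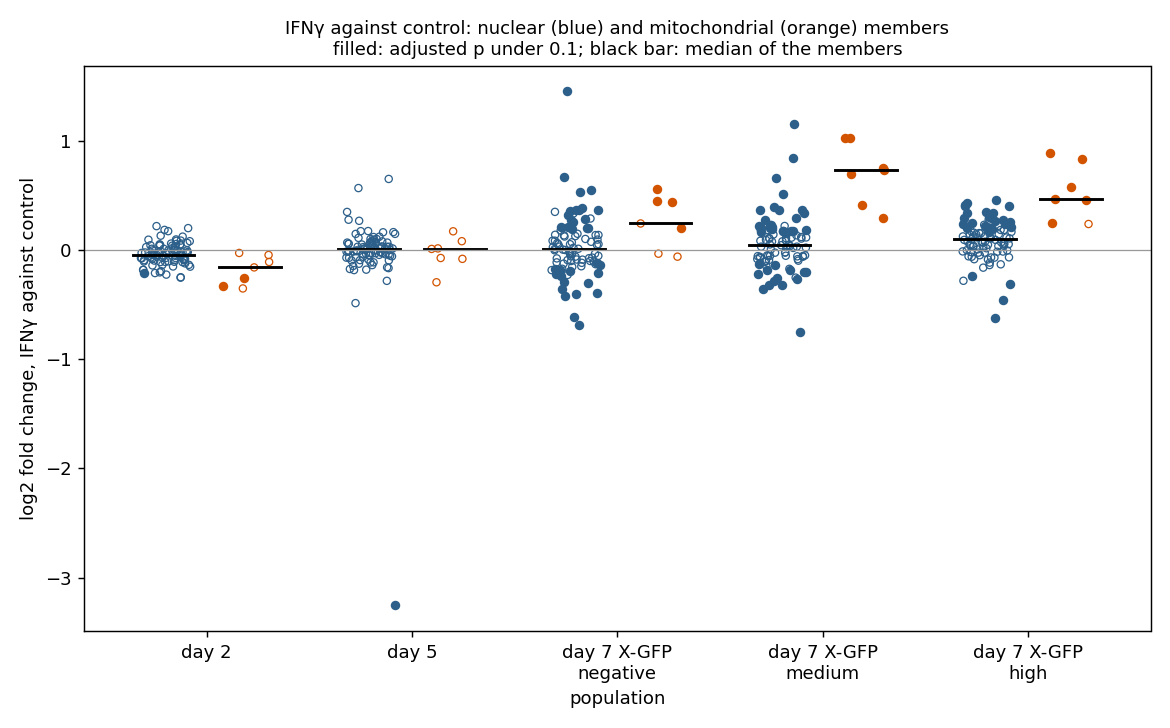
log2 fold change of IFNγ against control for each nuclear (blue) and mitochondrial (orange) member in the 5 populations (filled points pass the adjusted p threshold of 0.1, black bars are medians). Nuclear medians lie near 0 throughout, whereas the mitochondrial median is -0.16 at day 2 and 0.24, 0.73 and 0.46 in the day 7 populations.

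Several subunits were higher with IFNγ in all day 7 populations. Atp5g1 had 486 and 618 counts in control against 856 and 885 in IFNγ libraries in X-GFP negative cells (0.67 ± 0.12, adjusted p = 0.00122), 821 and 862 against 1323 and 1338 in X-GFP medium cells (0.66 ± 0.073, adjusted p = 4.46e-05), and 1337 and 1646 against 1950.2 and 2058 in X-GFP high cells (0.43 ± 0.096, adjusted p = 0.00566). No library of one treatment reached into the other, but lack of overlap was a condition for counting Atp5g1 among the largest changes. Uqcr11, the smallest subunit of complex III, rose by 0.55 ± 0.12, 0.51 ± 0.067 and 0.34 ± 0.078 on the log2 scale, and Ndufc1 by 0.53 ± 0.12, 0.36 ± 0.10 and 0.41 ± 0.097. Cyc1 rose by 0.35 ± 0.09, 0.30 ± 0.059 and 0.29 ± 0.067. Uqcrq rose in X-GFP negative (0.32 ± 0.13) and X-GFP high cells (0.45 ± 0.10) but did not pass in X-GFP medium cells (0.11 ± 0.11, adjusted p = 0.404).

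Other members fell. Atp5d had 5454 and 5449 counts in control against 3413 and 3703 in IFNγ libraries in X-GFP negative cells (-0.62 ± 0.064, adjusted p = 5.79e-05), 5541 and 5368 against 2962 and 3559 in X-GFP medium cells (-0.75 ± 0.082, adjusted p = 4.38e-05), and 4035 and 3913 against 3178 and 3205 in X-GFP high cells (-0.32 ± 0.066, adjusted p = 0.00403). Its IFNγ libraries all lay below their controls, and lack of overlap was a condition for naming it. Within complex III, Cyc1 parted from the other large subunits: the core proteins Uqcrc1 and Uqcrc2 and the Rieske iron-sulfur protein Uqcrfs1 fell in X-GFP negative cells (-0.40 ± 0.055, -0.36 ± 0.058 and -0.29 ± 0.061) and in X-GFP medium cells (-0.26 ± 0.058, -0.36 ± 0.055 and -0.29 ± 0.062), and did not pass in X-GFP high cells (adjusted p = 0.459, 0.157 and 0.37). Cox7a2l, which ties complex III to complex IV in supercomplexes, fell in all 3 populations (-0.43 ± 0.095, -0.32 ± 0.073 and -0.24 ± 0.085). Complex II had no member higher, and Sdhd was lower in X-GFP negative (-0.19 ± 0.062) and X-GFP medium cells (-0.32 ± 0.059).

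Of the core subunits of complex I, Ndufs1, Ndufs7, Ndufs8 and Ndufv2 did not pass with IFNγ in any day 7 population. Ndufs3 fell in X-GFP negative cells (-0.19 ± 0.071, adjusted p = 0.0477). Ndufv1, the NADH-binding flavoprotein, rose in X-GFP high cells (0.16 ± 0.068, adjusted p = 0.0872). For ATP synthase, neither Atp5a1 nor Atp5b passed in any day 7 population, with log2 fold changes from -0.07 to 0.11. In complex IV, 9 of 16 members rose in X-GFP medium cells and none fell, where 33.3% of all genes rose and 29.6% fell. Among those that rose were Cox5a (0.18 ± 0.063, adjusted p = 0.0367), Cox6a1 (0.34 ± 0.06, adjusted p = 0.000852) and Cox8a (0.20 ± 0.062, adjusted p = 0.0194).

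The mitochondrial members were raised with IFNγ at day 7: 4 of 7 in X-GFP negative, 7 of 7 in X-GFP medium and 6 of 7 in X-GFP high cells, and none was lower. Over all genes, 31.1%, 33.3% and 18.1% were higher and 30.8%, 29.6% and 20.4% lower. mt-Nd1, a core subunit of complex I, had 20940.0 and 23795 counts in control against 31624 and 33968 in IFNγ libraries in X-GFP negative cells (0.55 ± 0.073, adjusted p = 0.000224), 26855 and 25953 against 57951 and 49788 in X-GFP medium cells (1.02 ± 0.079, adjusted p = 4.64e-06), and 33754 and 37828 against 73712 and 59290.2 in X-GFP high cells (0.89 ± 0.11, adjusted p = 0.000102). The groups were apart in each population, but the share of all genes without overlap was not counted. mt-Nd2 had 3946 and 4848 against 5627 and 6314, 5123 and 5279 against 11615 and 9578, and 6846 and 7448 against 14255 and 11344 counts in the same order, with log2 fold changes of 0.45 ± 0.098, 1.02 ± 0.084 and 0.83 ± 0.097. mt-Cytb, the cytochrome b of complex III, rose by 0.44 ± 0.078, 0.75 ± 0.078 and 0.45 ± 0.11. mt-Nd5 rose by 0.20 ± 0.084, 0.69 ± 0.067 and 0.46 ± 0.088. Of the day 7 populations, mt-Co1, the catalytic subunit of complex IV, passed in X-GFP medium cells alone, with 173088 and 161492 counts in control against 227930.0 and 183603 in IFNγ libraries (0.29 ± 0.11, adjusted p = 0.0504). In X-GFP negative and X-GFP high cells it did not pass (-0.062 ± 0.069, adjusted p = 0.475 and 0.24 ± 0.14, adjusted p = 0.228). Leaving out 1 library gave 3 to 5, 6 to 7 and 5 to 7 mitochondrial members higher in the 3 populations, and none lower.

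Neither rRNA of the same DNA passed as higher. In X-GFP negative cells mt-Rnr1 and mt-Rnr2 fell with IFNγ (-0.36 ± 0.068, adjusted p = 0.0019 and -0.32 ± 0.11, adjusted p = 0.0313), and in X-GFP medium cells (0.02 ± 0.10, adjusted p = 0.883 and 2.6e-05 ± 0.26, adjusted p = 1) and X-GFP high cells (-0.06 ± 0.15, adjusted p = 0.8 and -0.036 ± 0.33, adjusted p = 0.947) they did not pass. rRNA had been depleted from the libraries, so these levels also carry the efficiency of that step, which was not measured. mt-rRNA held 9.36 to 20.0% of the counts on genes.

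The difference in the IFNγ effect between the medium and negative X-GFP populations was tested as an interaction over 8 libraries. Of the mitochondrial members 4 of 7 had a larger effect in X-GFP medium cells (7.31% of all genes were higher and 8.36% lower in this test): mt-Nd2 (0.57 ± 0.15, adjusted p = 0.0417), mt-Nd5 (0.50 ± 0.12, adjusted p = 0.0268), mt-Nd1 (0.47 ± 0.12, adjusted p = 0.0322) and mt-Nd6 (0.45 ± 0.13, adjusted p = 0.0574). Of 90 nuclear members 2 were higher and 1 lower, and 1 and 6 after rescaling, which moved the median of all genes to -0.12. Between X-GFP high and X-GFP medium cells none of the 7 mitochondrial members passed, none had an unadjusted p under 0.05, and DESeq2 called none of them, but without the first X-GFP high IFNγ library 3 were lower, while 4 nuclear members were higher and 1 lower of 91 (4.71% and 8.06% of all genes). These calls rested on single libraries. In the first interaction 7 members passed, but 1 without either X-GFP medium control library, 2 without the second X-GFP negative control library, 4 without the first IFNγ library of either population, and 11 without the second X-GFP medium IFNγ library. In the second interaction 5 passed, but 0 without either X-GFP medium control library or the second X-GFP high control library, 1 without the first X-GFP medium IFNγ library, and 12 or 2 without the first or second X-GFP high IFNγ library.

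The populations compared at day 7 also differed in their markers. The ESC genes summed to 18221 to 20235 counts in control and 28975 to 30136 in IFNγ X-GFP negative cells, to 34690 to 35356 and 61609 to 63028 in X-GFP medium cells, and to 61897 to 62823 and 76601 to 79425 in X-GFP high cells, with 6, 6 and 4 of the 6 genes higher. The fibroblast genes summed to 4416 to 5038 and 1010 to 1013, to 5036 to 5597 and 680 to 734, and to 2120 to 2612 and 610 to 684 counts. Of the 6 fibroblast genes tested, 1 was higher and 1 lower in X-GFP negative, 2 and 4 in medium, and 1 and 1 in high cells. Their median log2 fold changes were -0.14, -0.78 and 0.35, so the sums do not stand for every gene. Lum was at or under the floor in X-GFP negative control, X-GFP medium IFNγ and both X-GFP high populations. The NPC genes (Nes, Fabp7, Pax6, Olig2, Sox1 and Pou3f2) summed to 4775 to 4845 and 4996 to 5216, to 2993 to 3248 and 1555 to 1863, and to 1575 to 1640 and 722 to 749 counts, with Olig2 at or under the floor in all 6 populations and Fabp7 in the X-GFP medium and high ones. The part of these shifts in the changes of the respiratory chain was not tested.

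Some subunits have a second gene that is used in particular tissues, and several of these spanned a wide range. Ndufa4l2, a relative of the complex IV subunit Ndufa4 known as a target of hypoxia signalling, had 5.83 and 1.76 counts in NPCs, 3.06 and 0.993 at day 2, 109 and 58.6 at day 5, 1091 and 1046 in X-GFP negative control cells, 776 and 685 in X-GFP medium and 762 and 873 in X-GFP high control cells, and 61.9 and 37.1 in ESCs. It thus reached its highest level at day 7 and was far lower at both ends. From day 2, where it was at or under the floor of 3 reads, to day 5 it was at least 27.9-fold higher (3 reads in each library), and ESCs lay below X-GFP high cells (-4.06 ± 0.20, adjusted p = 5.61e-10). With IFNγ it was lower in X-GFP negative cells, with 656 and 670.1 counts (-0.69 ± 0.081, adjusted p = 0.000118), and in X-GFP high cells, with 552 and 509.7 (-0.62 ± 0.10, adjusted p = 0.0009), but did not pass in X-GFP medium cells, with 628 and 665 (-0.17 ± 0.092, adjusted p = 0.138). Ndufa4 itself ranged from 2641 ± 200.2 (SD, n = 2) in NPCs to 4203 ± 407 in ESCs and did not pass with IFNγ in any population.

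Cox7a1, the heart and muscle form of a complex IV subunit, had 8.75 and 6.15 counts in NPCs, 10.2 and 11.9 at day 2 and 245 and 216 at day 5 (4.26 ± 0.25, adjusted p = 1.46e-05). It stayed on at day 7, with 473 and 507 counts in X-GFP high control cells, and was lower in ESCs (-1.41 ± 0.16, adjusted p = 3.36e-06). Its ubiquitous counterpart Cox7a2 had 2688 ± 9.48 (SD, n = 2) counts in NPCs and 4220.4 ± 363 in ESCs. Cox4i2, the form of complex IV subunit 4 linked to low oxygen and lung, was at or under the floor in NPCs and at least 7.52-fold higher in ESCs. It rose with IFNγ in X-GFP negative cells, from 17.6 and 15.0 to 53.7 and 39.6 counts (1.45 ± 0.29, adjusted p = 0.00264), and in X-GFP medium cells, from 47.4 and 39.2 to 89.6 and 68.0 (0.84 ± 0.24, adjusted p = 0.0124). These are low counts, and the main form Cox4i1 had 8955 ± 272 (SD, n = 2) in NPCs and 16123 ± 732 in ESCs. Cox7b2, the testis form of Cox7b, singled out after its values were seen, had 0 counts in NPCs and at day 2 and 43.2 and 38.1 in ESCs, at least 14.6-fold higher.

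**Figure D4:**
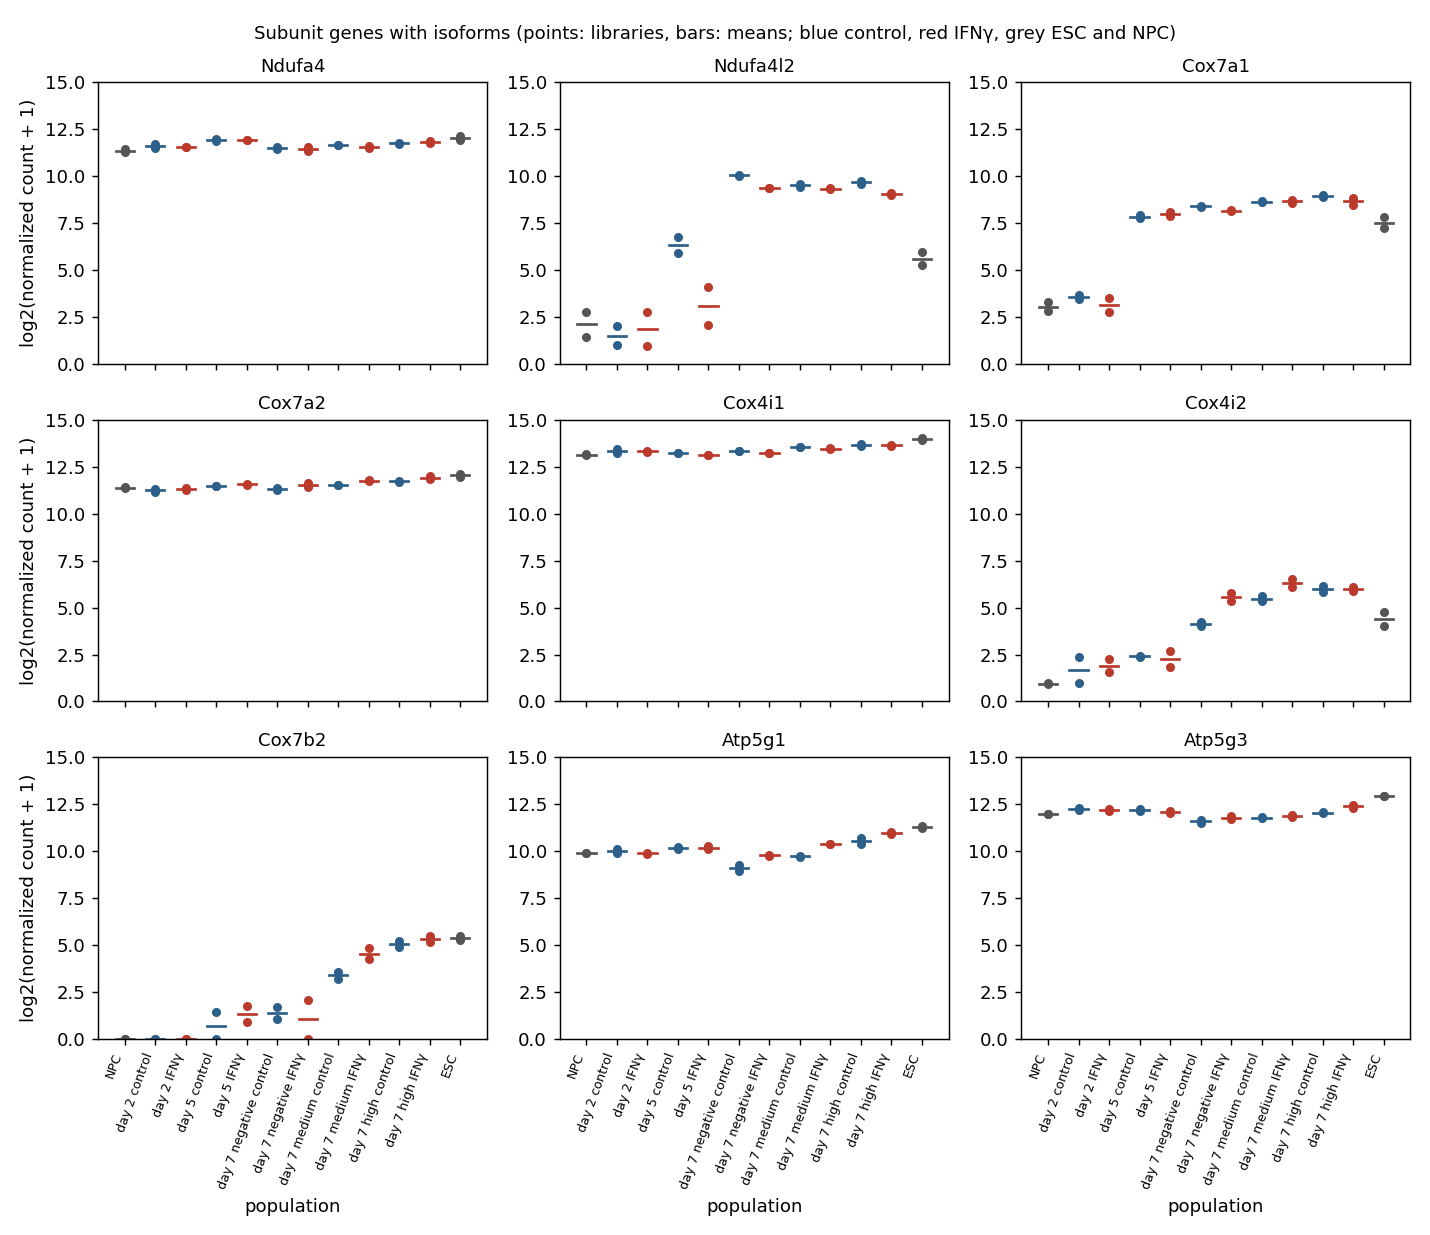
Levels of subunit genes that have isoforms (log2 of normalized count + 1, by population; points are libraries and bars are means; blue control, red IFNγ, grey ESC and NPC). Ndufa4l2, Cox7a1, Cox4i2 and Cox7b2 span a wide range between populations, while Ndufa4, Cox7a2 and Cox4i1 stay within a narrow band.

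The c subunit of ATP synthase is made from 3 genes whose mature proteins are identical. Per kilobase of exon, Atp5g1 had 193, Atp5g2 248 and Atp5g3 1857 normalized counts in NPCs, and 512, 389 and 3591 in ESCs. All 3 were higher in ESCs than in NPCs (1.41, 0.65 and 0.95). With IFNγ at day 7, Atp5g3 rose in X-GFP negative (0.20) and X-GFP high cells (0.34), and Atp5g2 passed in none of the 3 populations.

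Of the nuclear members 3 are X-linked, and for 2 of them the share of reads from X mus was given. Cox7b, a complex IV subunit, had 2670.1 and 2794 counts in NPCs, 3468 and 3885 in X-GFP negative, 5381 and 5325 in X-GFP medium and 7799.9 and 8386 in X-GFP high control cells, and 13167 and 11412 in ESCs (2.17 ± 0.083, adjusted p = 5.65e-06 for ESCs against NPCs). The share of its allele-specific reads from X mus, of which there is 1 value per population from the authors' pooled libraries and no error, was 0.061 in NPCs and 0.488 in ESCs, and at day 7 it was 0.018 in the negative, 0.052 in the medium and 0.361 in the high control cells. With IFNγ it was 0.013, 0.232 and 0.466 in the 3 day 7 populations. Multiplied by that share, the X mus part of its level was 167 counts in NPCs and 5995 in ESCs, and the part of the other, CAST, chromosome was 2565 and 6294. The CAST part therefore also stood higher in ESCs. Cox7b rose with IFNγ in X-GFP medium (0.23 ± 0.055, adjusted p = 0.00598) and X-GFP high cells (0.24 ± 0.074, adjusted p = 0.0277) but not detectably in X-GFP negative cells (0.0089 ± 0.082, adjusted p = 0.935).

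Ndufb11, a complex I subunit, had X mus shares of 0.075 in NPCs, 0.113, 0.276 and 0.426 in the negative, medium and high control cells of day 7, and 0.483 in ESCs. The medians of the 316 X-linked genes with values were 0.001, 0.009, 0.110, 0.336 and 0.481 in these populations. In X-GFP negative and X-GFP medium cells Ndufb11 therefore lay above the upper quartile of X-linked genes (0.037 and 0.197), whereas Cox7b lay below the median in X-GFP medium control cells. The level of Ndufb11 was 1387 ± 91.1 (SD, n = 2) in NPCs and 2477 ± 147 in ESCs (0.84 ± 0.08, adjusted p = 0.000156), and its CAST part was 1283 and 1281 counts. Ndufa1, the third X-linked member and a complex I subunit, had no X mus share in the table, and rose from 738 ± 10.4 (SD, n = 2) in NPCs to 1966 ± 129 in ESCs (1.41 ± 0.078, adjusted p = 1.74e-05).

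**Figure D5:**
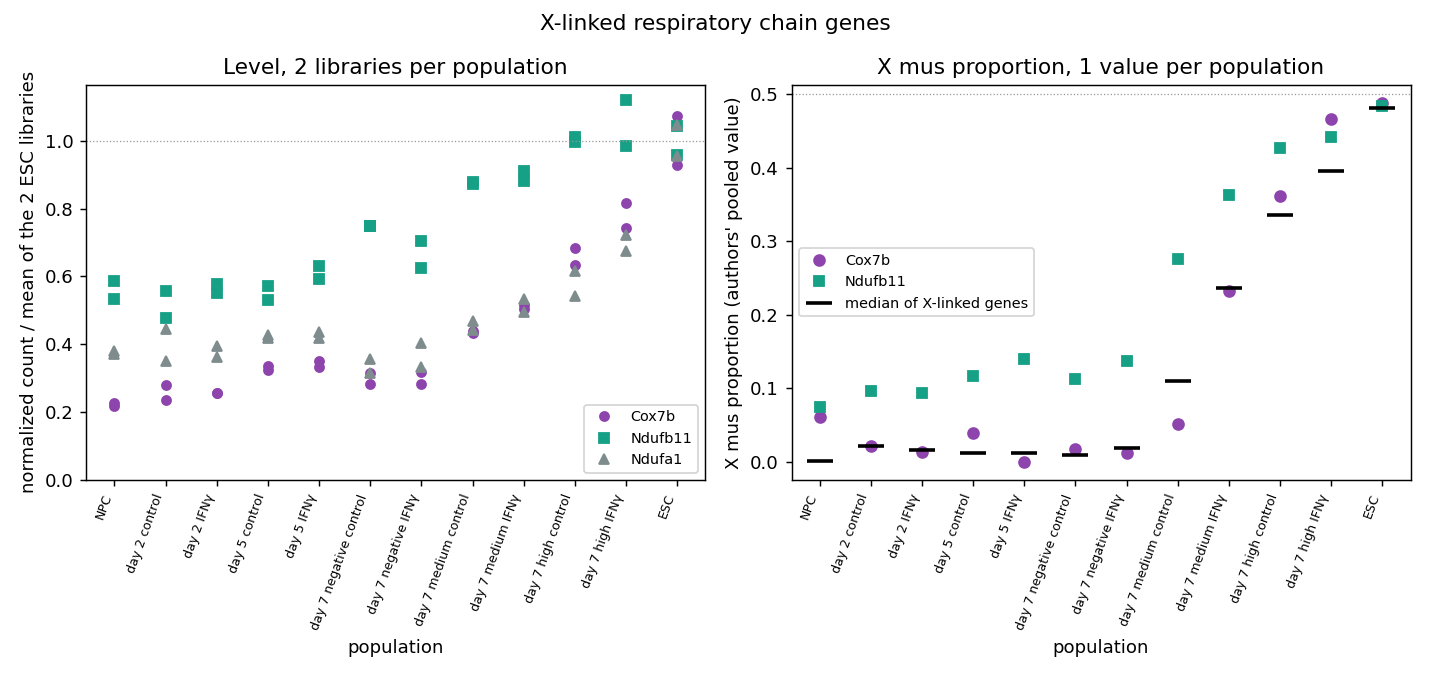
X-linked members by population. The left panel gives the normalized count of Cox7b, Ndufb11 and Ndufa1 in each library divided by the mean of the 2 ESC libraries, and the right panel gives the authors' pooled X mus proportion of Cox7b and Ndufb11 with the median of 316 X-linked genes as black dashes. Both proportions are below 0.15 up to X-GFP negative cells and between 0.36 and 0.49 in X-GFP high cells and ESCs.

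Genes outside the members that act on the chain were counted from fixed lists. Of 21 regulators of mitochondrial biogenesis and mitochondrial transcription tested at day 7, 11 rose and 4 fell with IFNγ in X-GFP negative, 14 and 2 in X-GFP medium and 10 and 2 in X-GFP high cells, where 31.1% and 30.8%, 33.3% and 29.6%, and 18.1% and 20.4% of all genes did. Tfam, which packages mitochondrial DNA and starts its transcription, rose by 0.51 ± 0.075, 0.55 ± 0.072 and 0.35 ± 0.074, and Polrmt, the mitochondrial RNA polymerase, by 0.48 ± 0.085, 0.54 ± 0.074 and 0.26 ± 0.083. Lrpprc, which stabilizes mitochondrial mRNAs, rose by 0.60 ± 0.077, 0.62 ± 0.076 and 0.39 ± 0.077. The coactivator gene Pprc1 rose by 0.53 ± 0.085, 0.63 ± 0.064 and 0.35 ± 0.085. The nuclear receptor Esrra, an activator of respiratory chain genes, fell instead (-0.34 ± 0.096, -0.49 ± 0.096 and -0.45 ± 0.11), and already at day 2 (-0.33 ± 0.078, adjusted p = 0.0741). The coactivator Ppargc1a had 48.6 and 85.2 counts in NPCs, 66.2 and 84.4 in control and 93.5 and 106 in IFNγ cells at day 2, 5.89 and 1.78 in control cells of day 5, and 0.983 and 0.952 in ESCs. It was thus expressed at the start of the path and near the floor from day 5 on.

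Of 76 mitochondrial ribosomal protein genes tested, which make the machinery that translates mitochondrial mRNAs, 27 rose and 10 fell with IFNγ in X-GFP negative, 29 and 11 in X-GFP medium, and 34 and 1 in X-GFP high cells. Their median log2 fold changes were 0.13, 0.076 and 0.18, against 0.016, 0.044 and 0.027 for all genes, of which 31.1%, 33.3% and 18.1% rose. Of 15 genes of mitochondrial RNA processing, 7, 9 and 7 rose and 0, 1 and 0 fell. Of 20 genes of complex IV assembly, 1 rose and 8 fell in X-GFP negative, 1 and 7 in X-GFP medium and 2 and 2 in X-GFP high cells, where 30.8%, 29.6% and 20.4% of all genes fell. The remaining lists were small or mixed in the order X-GFP negative, medium and high: complex I assembly outside the Nduf genes had 1 higher and 1 lower, 4 and 1, and 2 and 0 of 9. Assembly of complexes II, III and ATP synthase had 2 and 0, 1 and 2, and 1 and 1 of 13. The tricarboxylic acid cycle had 2 and 5, 5 and 4, and 3 and 4 of 13. Cytochrome c and the carriers had 4 and 3 of 9, 4 and 2 of 10, and 4 and 2 of 10.

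Nuclear respiratory chain genes are known targets of the factor NRF1, and many carry its site near the start of transcription. RefSeq windows of 300 bases (250 before the start and 50 after it, GRCm38) were at hand for 75 members. The NRF1 core CGCNTGCG with 1 further G before it and 1 further C after it, read on both strands, occurred in 19 of 75 members (25.33%) and in 1184 of 11300 genes with a window (10.48%). For CCGGAAG, the GABPA motif, the shares were 24.00% and 18.20%, and for the hypoxia response letters they were 24.00% and 28.35% (ACGTG) and 57.33% and 54.64% (GCGTG). The NRF1 letters include CGCNTGCG, which without the outer bases was found in 37.33% of members and 18.12% of genes, and a match is a description of the sequence only.

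The members below carry the NRF1 letters on the strand of the gene before the start. They were described above for their changes between populations or with IFNγ. Sdha, Sdhd, Uqcrc1, Atp5g3 and Ndufb4, also described above, have the letters in their windows too but are not printed. Among them, Uqcrc1 and Sdhd fell with IFNγ in X-GFP negative and medium cells, and Atp5g3 rose in X-GFP negative and high cells. The motif is in capitals, and each stretch ends before the RefSeq start of transcription. The GENCODE genes of Atp5k and Atp5g2 start further upstream, so their stretches reach into these genes. Atp5k is at chr5:108434405-108434484 (minus strand, motif 50 bases before the start), Cox6a1 at chr5:115349076-115349155 (minus, 162), Atp5g2 at chr15:102671048-102671124 (minus, 42) and Ndufaf4 at chr4:24897935-24898014 (plus, 113).
Atp5k: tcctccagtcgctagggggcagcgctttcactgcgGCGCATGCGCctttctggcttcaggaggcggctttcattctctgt
Cox6a1: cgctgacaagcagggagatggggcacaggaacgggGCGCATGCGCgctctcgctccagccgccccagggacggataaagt
Atp5g2: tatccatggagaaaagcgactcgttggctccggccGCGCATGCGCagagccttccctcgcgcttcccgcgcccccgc
Ndufaf4: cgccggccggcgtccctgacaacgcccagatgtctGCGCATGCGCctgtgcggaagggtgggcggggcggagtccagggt
Of these 4, Atp5k and Ndufaf4 were among the members named for lying below ESCs in X-GFP high control cells. Atp5g1, described above for its rise with IFNγ, had a window without the NRF1 letters.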

How the data were processed

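RNA-seq was made from 24 libraries of 12 populations with a stranded total RNA kit after rRNA depletion, in 50-base pairs. According to the study's methods and the processing notes of the submitters, reads were mapped with STAR to mm10 with strain variants masked and filtered for allelic mapping bias, and counted per gene with HTSeq 0.6.1. Strand and multiple-match settings are not given in the sources used here. The deposited values are a signal per gene, which the authors made by dividing read counts by DESeq2 size factors. Whole reads were recovered in all 24 libraries, 24746109 to 37056508 on genes. The table of X mus proportions, 1 value per population for 316 X-linked genes, was used as deposited. Of the gene identifiers, 35449 of 37315 (95.0%) were in the annotation.

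Levels were compared with limma 3.58.1 (R 4.3.3; lmFit, eBayes with trend, two-sided) on log2(normalized count + 1), over genes with a mean above 10 in the libraries compared, 2 against 2, for 10 comparisons and 2 interactions of 8 libraries. P-values were adjusted by Benjamini-Hochberg over all genes tested, with a threshold of 0.1. Fold changes are on that log2 scale, which understates low genes. The p-values measure the spread between these libraries, whose separate origin the labels do not state, and an exact permutation test of 2 against 2 cannot go below p = 0.33. The test was tried on data simulated from the means and dispersions of the day 7 X-GFP medium libraries, with 15429 genes. Of 99 genes changed by 0.5 and 100 by 1 on the log2 scale, 72.7% and 88% were recovered, with 9.60% of calls false. For the interaction of X-GFP medium and negative cells (15523 genes, 100 changed at each size) these were 27%, 76% and 7.21%. Other comparisons, where the share of genes called and the spread differ, were not simulated.

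The fits were repeated with a pseudocount of 0.1, without the filter on low values, with libraries rescaled to the same total outside the mitochondrial chromosome, with a replicate block, with DESeq2 1.42.0 on the recovered reads, and with each library left out in turn. The fold bounds use a floor of 3 reads in each library. Named genes were the mitochondrial members, fixed core, isoform and X-linked subunits, and in each comparison the 3 largest changes each way among members that passed, had no overlap and averaged at least 100 counts in 1 group. The regulators were named if they passed. The values of 1 nuclear member are not reported here, while counts and medians include it. Members and lists were chosen with earlier results of these data known. Sequences were read from RefSeq tables and the GRCm38 genome with Python 3.11.15 and Biopython 1.88.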

Additional observations from a re-analysis of the deposited data

Results flagged for a closer look

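The IFNγ effect differed between day 7 populations, by the test of the interaction itself, for the members given here. For X-GFP medium relative to negative cells the difference in log2 fold change was 0.57 for mt-Nd2, 0.50 for mt-Nd5, 0.47 for mt-Nd1, 0.45 for mt-Nd6, 0.24 for Cox8a and 0.51 for Ndufa4l2, all higher in X-GFP medium cells, and -0.27 for Atp5e, the ε subunit of ATP synthase. Of the 90 nuclear members 2 were higher and 1 lower, against 7.31% and 8.36% of all genes. Without the filter on low values 3 members passed.

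Between X-GFP high and X-GFP medium cells the difference was -0.45 for Ndufa4l2, 0.22 for Uqcrc2, 0.29 for Atp5k, 0.29 for Atp5e and 0.43 for Atp5d. These were 4 higher and 1 lower of 91 nuclear members, where 4.71% of all genes were higher and 8.06% lower. Without the filter on low values 0 members passed.

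mt-Nd2 and mt-Nd5 were lower with IFNγ at day 2 (-0.33 and -0.25), where 3.45% of all genes were lower. Both were higher in the 3 day 7 populations. Over all genes, 31.1%, 33.3% and 18.1% were higher in X-GFP negative, medium and high cells. The difference between day 2 and day 7 was not tested.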

How the results depend on the processing

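With 2 libraries per group, changes of 0.5 on the log2 scale were recovered less often than changes of 1 in simulated data. The effect of depth was not tested. Leaving out a library left 1 in that group, which was assumed to vary like the others. Of 255 values of named genes past the threshold, 253 kept 1 sign in every alternative and 160 stayed past it in every alternative. Those lost were 3 with a pseudocount of 0.1, 36 without the filter on low values, 29 after rescaling, 31 with DESeq2, and 221 of 1066 over the fits that left out 1 library, where 0 reversed. Mean levels of the members moved by more than the spread in 16 of 22 values after rescaling. The cause of these changes was not tested.

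The number of members past the threshold was 3 for IFNγ at day 2 and 1 without the filter. For IFNγ at day 5 it was 1, with 0 at a pseudocount of 0.1 or without the filter, and 4 with DESeq2. It was 33 for IFNγ in X-GFP high cells and 18 without the filter. It was 7 for the interaction of X-GFP medium and negative cells and 3 without the filter. For that of high and medium cells it was 5, with 0 without the filter, 3 after rescaling and 3 with DESeq2. Leaving out 1 library gave 0 to 2 for IFNγ at day 2, 0 to 5 at day 5, 21 to 40 in X-GFP negative, 25 to 54 in medium and 13 to 41 in high cells, 72 to 82 for ESC against NPC, 25 to 45 for day 2 against NPC, 36 to 51 for day 5 against day 2, 63 to 72 for X-GFP high against negative, 73 to 74 for ESC against X-GFP high, and 1 to 11 and 0 to 12 for the interactions.

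After rescaling, 5 values changed sign. In X-GFP negative cells with IFNγ these were 0.058 for mt-Co1, 0.085 for mt-Nd6 and 0.0027 for Cox4i1, and for ESC against NPC -0.17 for mt-Nd1 and -0.019 for Sdhc. Cox4i1 and Sdhc had been past the threshold. Leaving out 1 library changed the sign of values that had not passed. With IFNγ these ran from -0.075 to 0.020 for mt-Co1 at day 2, from -0.093 to 0.11 for mt-Nd6, from -0.039 to 0.066 for mt-Nd2 and from -0.022 to 0.18 for mt-Nd1 at day 5, and from -0.13 to 0.0017 for mt-Co1 and -0.14 to 0.071 for mt-Nd6 in X-GFP negative cells. They ran from -0.097 to 0.12 for mt-Nd1 between ESC and NPC, from -0.0041 to 0.26 for mt-Cytb between day 2 and NPC, and, for the interaction of X-GFP high and medium cells, from -0.45 to 0.13 for mt-Nd4, -0.29 to 0.020 for mt-Nd1 and -0.27 to 0.16 for mt-Co1.

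No label states that a replicate number marks a shared culture or day, and with 2 pairs per comparison the numbers were taken as names. Deviations of libraries with the same number correlated at 0.049 to 0.31 in the 5 IFNγ comparisons, where those at day 2 (0.31), at day 5 (0.26) and in X-GFP negative cells (0.12) were highest, and at -0.12 to 0.099 in the others. With the replicate number as a block, the count was 16 for IFNγ at day 2 (3 nuclear members higher, 9 nuclear and 4 mitochondrial lower), 7 at day 5, and 19 and 10 for the interactions. Among the 255 named values, 6 were lost under the block. For day 2 against NPC, where the correlation was lowest, the block gave 39 members and the crossed numbers, an alternative chosen after seeing the data, 55, against 49 without a block.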
